A study of Mus musculus with 12 samples.

Results

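The genes described here are 46 interferon-stimulated and antigen presentation genes, chosen by gene symbol from a fixed list, out of 28995 genes listed in any of 3 tables of RNA-sequencing counts. All 46 were present in every table. The cells were fibroblasts from hindlimb skeletal muscle of C57 BL/10 wild-type mice at postnatal day 3, enriched by adherence and held for 24 hours in medium with charcoal-stripped serum, which removes steroids. They were then treated for 48 hours with 1 µM aldosterone, the agonist of the mineralocorticoid receptor (MR), with 1 µM spironolactone, an MR antagonist, or with the DMSO vehicle alone, and each treatment had 4 libraries. The labels give 2 mice, with cells pooled per mouse and 2 replicate plates per mouse in every treatment. In the titles each library has 2 numbers, called sample and biological replicate here, and which of them stands for the mouse is not stated. Below, replicates 1 and 2 of a treatment are the plates of sample number 1, and replicates 3 and 4 those of sample number 2. P-values therefore measure the spread between these plates, which come from 2 mice. Means of normalized counts are given ± SD and log2 differences ± SE.

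Interferons are secreted alarm signals of viral infection. Type I interferons bind the receptor *Ifnar1*/*Ifnar2* and activate STAT2 and IRF9, which act at interferon-stimulated response elements in the promoters of its target genes, while interferon gamma signals through *Ifngr1*/*Ifngr2*. The target genes include sensors of foreign RNA, proteins that block viral translation and release, GTPases that attack membranes of intracellular pathogens, and the machinery that cuts proteins into peptides and loads them on class I molecules. Fibroblasts respond to interferons and also keep a low level of many of these transcripts without infection.

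The promoter sequences are shown because 17 of the members have there a match to the core of the interferon-stimulated response element. RefSeq promoters (GRCm38.p6, from 250 bases before to 50 bases after each transcript start) were found for 36 of the 46 genes. The core, a pair of GAAA units 2 bases apart, searched on both strands, was present in 17 of these 36 genes (47.2%), and in 3.99% of the 27025 genes with a promoter entry. The gamma-activated sequence TTCNNNGAA, also searched on both strands, was present in 9 of the 36 genes, against 17 with the core, and in 9.55% of all genes with an entry. Matches are a description of the letters, not of binding. The stretches below run from 20 bases before the first to 20 bases after the last core, or to the last base before the start, 5′ to 3′ on the strand of the gene, with the cores in capitals. They belong to genes whose values are described in what follows. The 84 bases shown for the paralogs *Ifit3* and *Ifit3b* are identical. They lie before the transcript start, and whether reads of this pair were split between them by the counting was not examined.
*Isg15*, chr4:156200855-156200916, minus strand: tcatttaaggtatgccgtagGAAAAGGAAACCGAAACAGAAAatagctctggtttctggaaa
*Ifit1*, chr19:34640765-34640833, plus strand: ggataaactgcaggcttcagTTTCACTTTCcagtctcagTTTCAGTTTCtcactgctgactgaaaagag
*Ifit3*, chr19:34583353-34583436, plus strand: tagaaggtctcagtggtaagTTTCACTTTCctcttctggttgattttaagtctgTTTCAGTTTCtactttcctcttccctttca
*Ifit3b*, chr19:34607749-34607832, plus strand: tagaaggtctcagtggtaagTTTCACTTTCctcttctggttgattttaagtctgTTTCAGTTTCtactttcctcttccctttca
*Bst2*, chr8:71537567-71537622, minus strand: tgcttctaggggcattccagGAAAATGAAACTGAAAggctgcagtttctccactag
*Irgm1*, chr11:48871421-48871470, minus strand: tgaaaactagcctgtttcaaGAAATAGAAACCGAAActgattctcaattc
*Stat2*, chr10:128270256-128270305, plus strand: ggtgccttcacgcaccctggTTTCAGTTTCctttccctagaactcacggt
*B2m*, chr2:122147528-122147577, plus strand: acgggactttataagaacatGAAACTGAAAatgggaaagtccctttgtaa
*Gbp2*, chr3:142620584-142620633, plus strand: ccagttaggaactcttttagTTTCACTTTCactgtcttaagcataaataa
*Oas3*, chr5:120777705-120777754, minus strand: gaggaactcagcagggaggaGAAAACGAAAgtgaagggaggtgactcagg

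Reads counted on genes ranged from 19136923 to 30219185 per library over 12 libraries. The deposited values, called normalized counts here, are reads per gene after division by a scaling factor of the library. *Fkbp5*, a known target of steroid receptors, served as the control of the treatment and had a normalized count of 6330.1 ± 473 with aldosterone and 330.4 ± 38.7 with vehicle (SD, n = 4 each). The 8 fibroblast markers were all detected. Their sum was lower with aldosterone (836597 to 950958 normalized counts) than with vehicle (1043574 to 1142918), with 1 marker called lower (*Col3a1*) and 1 higher (*Pdgfra*) by limma, and 7 lower and 1 higher with a replicate block on the sample number. The defining leukocyte marker *Ptprc* was at 0.663 with vehicle and 0 in every aldosterone library. Of the markers of other cell types, *Cd14*, used as a macrophage marker, was higher with aldosterone (86.5 ± 6.96 against 53.5 ± 6.64, limma adjusted p = 0.013), and so was the endothelial marker *Kdr* (168 ± 79.6 against 45.1 ± 23.1, limma adjusted p = 0.00183). *Cd14* was the 1 called of 6 macrophage markers, of which 3 had differences above 0. The macrophage sums overlapped (296 to 347 with aldosterone, 261 to 348 with vehicle). *Kdr* was the 1 called of 5 endothelial markers (2 with the block), of which 3 had differences above 0. The endothelial sums were 683 to 765 with aldosterone and 477 to 538 with vehicle. The part of these markers in the results was not tested.

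The members spanned a wide range of levels in untreated cells. Per kilobase of gene length, a scale on which genes can be set against each other, *B2m*, the light chain of class I molecules, had the highest level in vehicle (8508 ± 549 normalized counts per kilobase, SD, n = 4). It was followed by *Ifi27* at 1890.0 ± 234 and *Lgals3bp*, a secreted glycoprotein gene, at 992 ± 145 on the same scale. Between 100 and 1000 per kilobase lay 11 members, among them *Bst2* (487 ± 203), *Stat2* (138 ± 23.7), *Irf9* (124 ± 31.9), *Isg15* (118 ± 79.2) and *Tap1* (111 ± 5.47). Another 17 members lay between 10 and 100 and 16 under 10. The neighbours *Stat2*, *Irf9* and *Isg15* did not differ beyond their spread, and *Isg15* had the largest SD among them. At the low end were antiviral effectors, with *Mx1* at 0.0905 per kilobase and *Oas3* at 0 in all 4 vehicle libraries. Of the 46 members, 39 had a mean of at least 10 normalized counts over the 12 libraries.

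**Figure D1:**
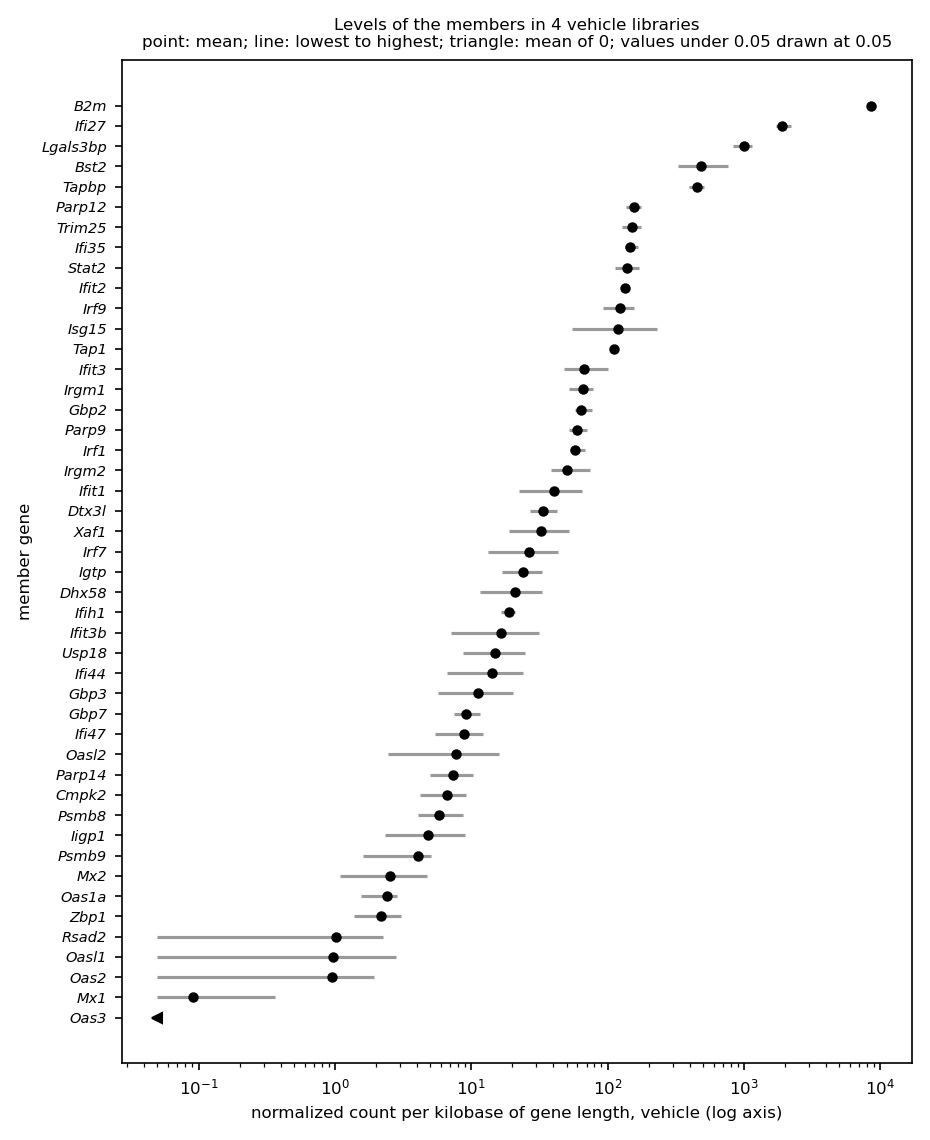
Normalized counts per kilobase of gene length (log axis) of the 46 members in the 4 vehicle libraries, points for means and lines from the lowest to the highest library. *B2m* stands at 8508 and 16 members lie under 10, with *Oas3* at 0.

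The first comparison asked whether aldosterone changed these genes. Aldosterone raised 2 of the 46 members (*Ifi35* and *Oas3*) and lowered none (limma, Benjamini-Hochberg adjusted p of at most 0.05), against 5.68% of the 27319 genes tested called higher and 4.74% called lower. The median log2 difference of the members was 0.06, and that of all genes was -0.01. Of all 46, 4 had an unadjusted p under 0.05, against 5705 of the 27319 genes. Among the 38 members with a mean of at least 10 in this pair of treatments, 35 differed by less than 0.5 on the log2(normalized count + 1) scale. Fewer cells of a type and less RNA per cell cannot be told apart in such bulk libraries. Because libraries of the same sample number deviated together, each result is also given with a replicate block on the sample number where this changed the call. The SE printed beside a log2 difference is that of the fit without this block.

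*Ifi35*, an interferon-induced leucine zipper protein, had normalized counts of 313, 353, 365 and 355 in the 4 aldosterone libraries and of 286, 245, 242 and 232 in the 4 vehicle libraries. The lowest aldosterone library was above the highest vehicle library. The log2 difference was 0.46 ± 0.09, or 1.38-fold, with an adjusted p of 0.00317 by limma (p = 0.0286 in an exact permutation test, two-sided, and no smaller p is possible with 4 against 4). *Oas3*, a synthetase of the RNase L pathway, had 9, 6, 1 and 1 reads with aldosterone and 0 in all vehicle libraries. After scaling, that is 5.39-fold above a floor of 3 reads over the vehicle group (limma adjusted p = 0.0387). The ratio makes no allowance for counting error in the aldosterone reads, so it is not a lower bound. The spironolactone libraries had 0, 1, 0 and 1 reads of *Oas3*. The call of *Oas3* rests on 17 reads in all, of which 15 were in the libraries of sample number 1. It was lost when any single library was left out (limma adjusted p from 0.0566 to 0.197). These were also the 2 members whose groups did not overlap, against 7.55% of all genes without overlap in this direction. No member lay below without overlap, against 6.9%.

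Signalling and transcription genes did not pass the test. *Stat2*, a transcription factor activated by type I interferons, had normalized counts of 806, 864, 1232 and 967 with aldosterone and 758, 673, 1001 and 851 with vehicle. The groups overlapped. In sample number 1 both aldosterone libraries were above both vehicle libraries, and in sample number 2 this held for 1 of 2. The log2 difference was 0.23 ± 0.13, with a limma adjusted p of 0.326 and of 0.0153 with the replicate block. *Irf9*, its DNA-binding partner, had 459.9, 547, 946 and 728 with aldosterone and 542, 501, 847 and 779 with vehicle. *Irf7*, the factor that amplifies interferon transcription, had 50.4, 95.4, 179 and 131 with aldosterone and 75.5, 49.8, 162 and 113 with vehicle. In both genes the spread within a treatment was larger than the difference between the treatments, with log2 differences of -0.01 ± 0.19 and 0.18 ± 0.35 and limma adjusted p of 0.985 and 0.835. Their 95% intervals were -0.42 to 0.40 and -0.57 to 0.92 on the log2 scale.

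Among the antiviral effectors, *Isg15*, a ubiquitin-like protein that is attached to other proteins, had normalized counts of 41.3, 33.7, 116 and 80.8 with aldosterone and 38.6, 50.7, 162 and 81.6 with vehicle. Low and high libraries occurred in both groups, and the log2 difference was -0.24 ± 0.41 (limma adjusted p = 0.795). None of the 4 IFIT genes, whose proteins bind foreign RNA, passed the test, with log2 differences of -0.40 ± 0.44 for *Ifit1*, 0.06 ± 0.08 for *Ifit2*, -0.22 ± 0.26 for *Ifit3* and -0.92 ± 0.48 for *Ifit3b*. The same held for the 3 genes of the ISG15 system and the 5 other antiviral effectors, which include *Bst2* at 0.18 ± 0.26 and the viperin gene *Rsad2* at -0.50 ± 0.78. Of the PARP genes, which add ADP-ribose to proteins, *Parp14* had 93.0, 84.8, 173 and 118 with aldosterone and 46.1, 50.7, 95.2 and 82.7 with vehicle. Within each sample number, both aldosterone libraries of *Parp14* were above both vehicle libraries. Its log2 difference was 0.77 ± 0.25, with a limma adjusted p of 0.0652, of 0.000492 with the replicate block and of 0.0304 by DESeq2 on recovered reads. By edgeR on recovered reads the adjusted p of *Parp14* was 0.0635. With single libraries left out its limma adjusted p ran from 0.106 to 0.332. The microtubule-associated *Ifi44* had 19.4, 22.2, 95.8 and 60.4 with aldosterone and 58.7, 41.0, 146 and 102 with vehicle. Within each sample number both aldosterone libraries of *Ifi44* were the lower ones, and the log2 difference of -0.94 ± 0.45 had a limma adjusted p of 0.252, and of 0.00147 with the block. *Irgm1*, a GTPase that regulates its family, differed by -0.28 ± 0.16 on the log2 scale (limma adjusted p = 0.36, and 0.0123 with the block), and the other 7 GTPases did not pass either test, with *Gbp2* at 0.26 ± 0.13 and *Ifi47* at -0.50 ± 0.36. Of the 3 sensors, *Ifih1* differed by 0.03 ± 0.18, *Dhx58* by 0.39 ± 0.28 and *Zbp1*, a sensor of left-handed nucleic acids, by -0.85 ± 0.46, none past the threshold.

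For antigen presentation, *B2m* had normalized counts of 6136, 6717, 8253 and 8400.3 with aldosterone and 7293, 6913, 7986 and 7074 with vehicle. The aldosterone libraries held both the lowest and the highest values, and the log2 difference was 0.00 ± 0.09 with a 95% interval of -0.19 to 0.19 (limma adjusted p = 0.996). *Tap1*, a subunit of the peptide transporter into the endoplasmic reticulum, had 483, 515, 584 and 478 with aldosterone and 609.9, 597, 652 and 582 with vehicle. Only the third aldosterone library reached the vehicle range, and without it the log2 difference was -0.31 (limma adjusted p = 0.0220). Leaving out any other single library gave a limma adjusted p of 0.102 to 0.175, not past the threshold. The log2 difference of *Tap1* was -0.25 ± 0.08, with a limma adjusted p of 0.0564 and of 0.0109 with the block. On recovered reads, edgeR gave *Tap1* an adjusted p of 0.0467 and DESeq2 0.0418, both past the threshold. The immunoproteasome subunits *Psmb8* and *Psmb9* and the peptide-loading chaperone *Tapbp* had log2 differences of 0.46 ± 0.34, 0.30 ± 0.41 and -0.07 ± 0.09 and did not pass the test. *Tap1* and *Psmb9* overlap on chromosome 17 in the deposited annotation, and whether the counting used the strand is not given in the sources used here.

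With the replicate block, 4 members were called higher with aldosterone (*Ifi35*, *Parp14*, *Oas3* and *Stat2*) and 3 lower (*Ifi44*, *Tap1* and *Irgm1*), against 8.68% and 8.02% of all genes. Read against these backgrounds, 4 and 3 of 46 members are close to the shares of all genes.

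**Figure D2:**
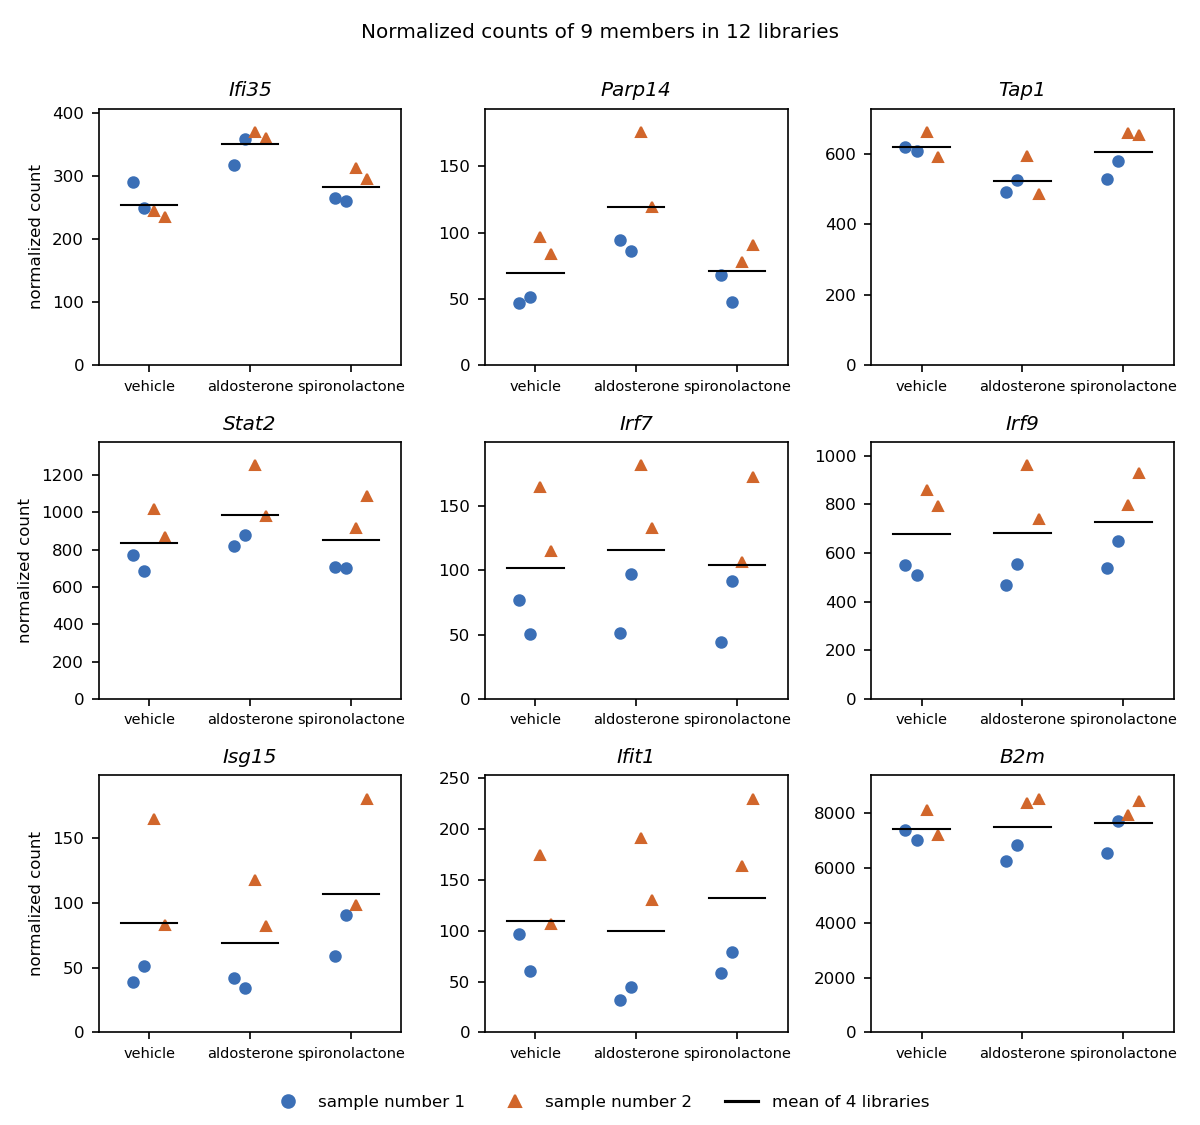
Normalized counts of 9 members in the 12 libraries on a common scale, by treatment, with circles for sample number 1, triangles for sample number 2 and lines for means of 4 libraries. In *Ifi35* the aldosterone libraries (318 to 370.4) lie above the vehicle libraries (236 to 290.4), while in *Irf9* the triangles lie above the circles in each treatment.

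The second comparison set aldosterone against spironolactone. It shares the aldosterone libraries with the first, so the values are given side by side and are not independent of it. One member was called higher (*Ifi35*) and 0 lower by limma, against 4.93% and 3.96% of 27631 genes. An unadjusted p under 0.05 was found for 9 members and for 5175 of the 27631 genes. *Ifi35* had 322, 362, 375 and 365 with aldosterone and 268, 265, 316 and 299 with spironolactone. The groups did not overlap, and the log2 difference was 0.31 ± 0.09 (limma adjusted p = 0.0383). No member was called when any 1 of 6 of the 8 libraries was left out (aldosterone replicates 2, 3 and 4 and spironolactone replicates 1, 2 and 4).

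With the replicate block, 3 members were called higher (*Ifi35*, *Parp14* and *Stat2*) and 7 lower with aldosterone than with spironolactone, against 7.58% and 6.8% of all genes. The 7 lower members were *Ifi44*, *Irgm1*, *Isg15*, *Ifit3*, *Ifit3b*, *Ifit1* and *Tap1*. *Ifi44* had 19.97, 22.8, 98.4 and 62.1 with aldosterone and 64.3, 74.7, 113 and 146 with spironolactone. Within each sample number both aldosterone libraries were below both spironolactone libraries, with a log2 difference of -1.18 ± 0.40 (limma adjusted p = 0.0851, and 4.6e-05 with the block). *Isg15* had 42.6, 34.7, 119 and 83.1 with aldosterone and 60.1, 91.7, 99.3 and 182 with spironolactone. For *Isg15* the plates of sample number 2 overlapped, and the log2 difference was -0.68 ± 0.35 (limma adjusted p = 0.313, and 0.0119 with the block). The differences of *Irgm1*, *Ifit3*, *Ifit3b* and *Ifit1* were -0.40, -0.45, -1.07 and -0.57 on the log2 scale, with limma adjusted p of 0.000359, 0.0174, 0.0192 and 0.02 with the block and none under the threshold without it.

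Spironolactone against vehicle, the third comparison, called 0 members and 0 of 27598 genes by limma (0% in either direction). An unadjusted p under 0.05 was found for 1 member and for 1251 of the 27598 genes. edgeR and DESeq2 on recovered reads also called 0 members, as did limma with the replicate block, which called 0.228% of all genes higher and 0.123% lower. *Isg15* had 58.8, 89.9, 97.4 and 179 with spironolactone and 38.7, 51.1, 163 and 82.1 with vehicle, with overlap between the treatments. Its log2 difference was 0.44 ± 0.36 with a 95% interval of -0.31 to 1.20. The interval of *B2m* was narrower, at -0.11 to 0.19. Among the members with a mean of at least 10, the log2 differences ran from -0.35 to 0.44. Of all 46 members, 38 had a difference above 0, with a median of 0.07, against 14010 of 27598 genes and a median of 0.00. Many members varied together across the libraries, so the 38 are not separate observations.

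The members were then compared between the sample numbers, whichever treatment the plates had received. In 1 fit over the 12 libraries with treatment as a covariate, 33 of the 46 members were higher in sample number 2 than in sample number 1 and 0 were lower (limma, adjusted p of at most 0.05), against 5.09% of 28995 genes called higher and 5.81% called lower. For this fit the recovered reads were scaled to a common size over the 12 libraries. The median log2 difference was 0.51 for the members and 0.00 for all genes. In 28 members, both plates of sample number 2 were above both plates of sample number 1 in all 3 treatments, which 4.37% of all genes showed, and no member showed the opposite, which 5.06% did. The sample number cannot be told apart from anything else that plates of the same number share.

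The signalling genes were called in 4 of 4 cases. *Irf9* had normalized counts of 550.1, 509, 468, 556, 539 and 650.2 in the 6 libraries of sample number 1, in the order vehicle, aldosterone and spironolactone. In the same order it had 859.9, 792, 961, 739, 796 and 928 in sample number 2. The lowest library of sample number 2 was above the highest of sample number 1, and the log2 difference was 0.63 ± 0.07 (limma adjusted p = 3.85e-08). *Irf7* ranged from 44.5 to 97.0 in sample number 1 and from 107 to 181 in sample number 2, with a log2 difference of 1.11 ± 0.17 (limma adjusted p = 3.7e-05). *Stat2* was higher by 0.42 ± 0.06 and *Irf1*, a factor of the interferon gamma response, by 0.23 ± 0.08 (limma adjusted p = 6.41e-06 and 0.0441). Of the sensors, *Ifih1*, which detects long double-stranded RNA, and *Dhx58*, its regulator, were called, with log2 differences of 0.49 ± 0.10 and 0.66 ± 0.16 by limma, while *Zbp1* had 0.48 ± 0.40 and was not.

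Among the antiviral effectors, *Ifit1* had 97.1, 60.5, 31.5, 45.1, 58.2 and 79.4 normalized counts in sample number 1 and 175, 107, 191, 129.9, 163 and 229.8 in sample number 2, in the same order of treatments. Every library of sample number 2 was above every library of sample number 1, at 2.74-fold on the fitted scale (log2 difference 1.45 ± 0.18, limma adjusted p = 8.29e-07). *Isg15* had 39.2, 51.6, 42.1, 34.3, 59.3 and 90.6 in sample number 1 and 165, 82.9, 118, 82.1, 98.2 and 180.4 in sample number 2. The second spironolactone plate of sample number 1 lay above both lowest plates of sample number 2, though within each treatment the numbers did not overlap, and the log2 difference was 1.19 ± 0.18 (limma adjusted p = 2.17e-05). *Bst2*, which tethers budding viruses to the cell surface, had 308, 298, 327, 372, 304 and 441 in sample number 1 and 694, 486, 754, 551, 614 and 724 in sample number 2. No library of *Bst2* overlapped, with a log2 difference of 0.89 ± 0.09 (limma adjusted p = 1.74e-08). Of the IFIT genes 3 of 4 were called, and *Ifit2*, the one that was not, ranged from 505 to 627 in the 12 libraries. In the OAS family 2 of 5 passed, *Oasl2* with 1.53 ± 0.29 and *Oas2* with 1.39 ± 0.45, and the other three had means under 5. All 3 genes of the ISG15 system (*Isg15*, its protease *Usp18* and its ligase *Trim25*) and all 4 genes of the PARP group were called, from 0.19 ± 0.06 for *Parp12* to 0.70 ± 0.13 for *Parp14*. Of the other antiviral effectors, *Cmpk2*, a mitochondrial nucleotide kinase, and *Mx2* were called with 0.85 ± 0.23 and 1.29 ± 0.36, while *Mx1* and *Rsad2*, with means under 6 in both numbers, were not.

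Among the GTPases, 6 of 8 were called, with *Irgm1* at 0.52 ± 0.06, *Irgm2* at 0.72 ± 0.10 and *Gbp3* at 0.86 ± 0.22 on the log2 scale. *Gbp2* and *Ifi47* were not, and *Gbp2* had a mean of 174 ± 21.9 in sample number 1 and 175 ± 33.9 in sample number 2 (SD, n = 6 each). *Igtp* and *Irgm2* overlap on chromosome 11 in the deposited annotation, as *Parp9* and *Dtx3l* do on chromosome 16. Among other interferon-induced genes, *Xaf1*, whose product promotes cell death, was higher by 0.96 ± 0.16, *Lgals3bp* by 0.37 ± 0.06 and *Ifi27* by 0.21 ± 0.05. *Ifi44* had 59.6, 41.6, 19.7, 22.5, 63.5 and 73.8 in sample number 1 and 149, 104, 97.3, 61.3, 112 and 144 in sample number 2, a log2 difference of 1.34 ± 0.17 (limma adjusted p = 1.51e-06). The largest fitted difference of any member was that of *Iigp1*, a GTPase that acts on parasite vacuoles, at 1.57 ± 0.36 (limma adjusted p = 0.00314).

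The antigen presentation genes had smaller differences, all under 0.5 on the log2 scale, and 2 of 5 were called. *B2m* had a mean of 6962 ± 538 in sample number 1 and 8097 ± 499 in sample number 2, a log2 difference of 0.22 ± 0.05 (limma adjusted p = 0.00111), and *Tapbp* had 0.28 ± 0.04 (limma adjusted p = 1.37e-05). *Tap1* (0.12 ± 0.06), *Psmb8* (0.26 ± 0.29) and *Psmb9* (0.42 ± 0.31) were not called. *Ifi35*, the member raised by aldosterone, had 0.05 ± 0.07 between the sample numbers and was not called either.

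**Figure D3:**
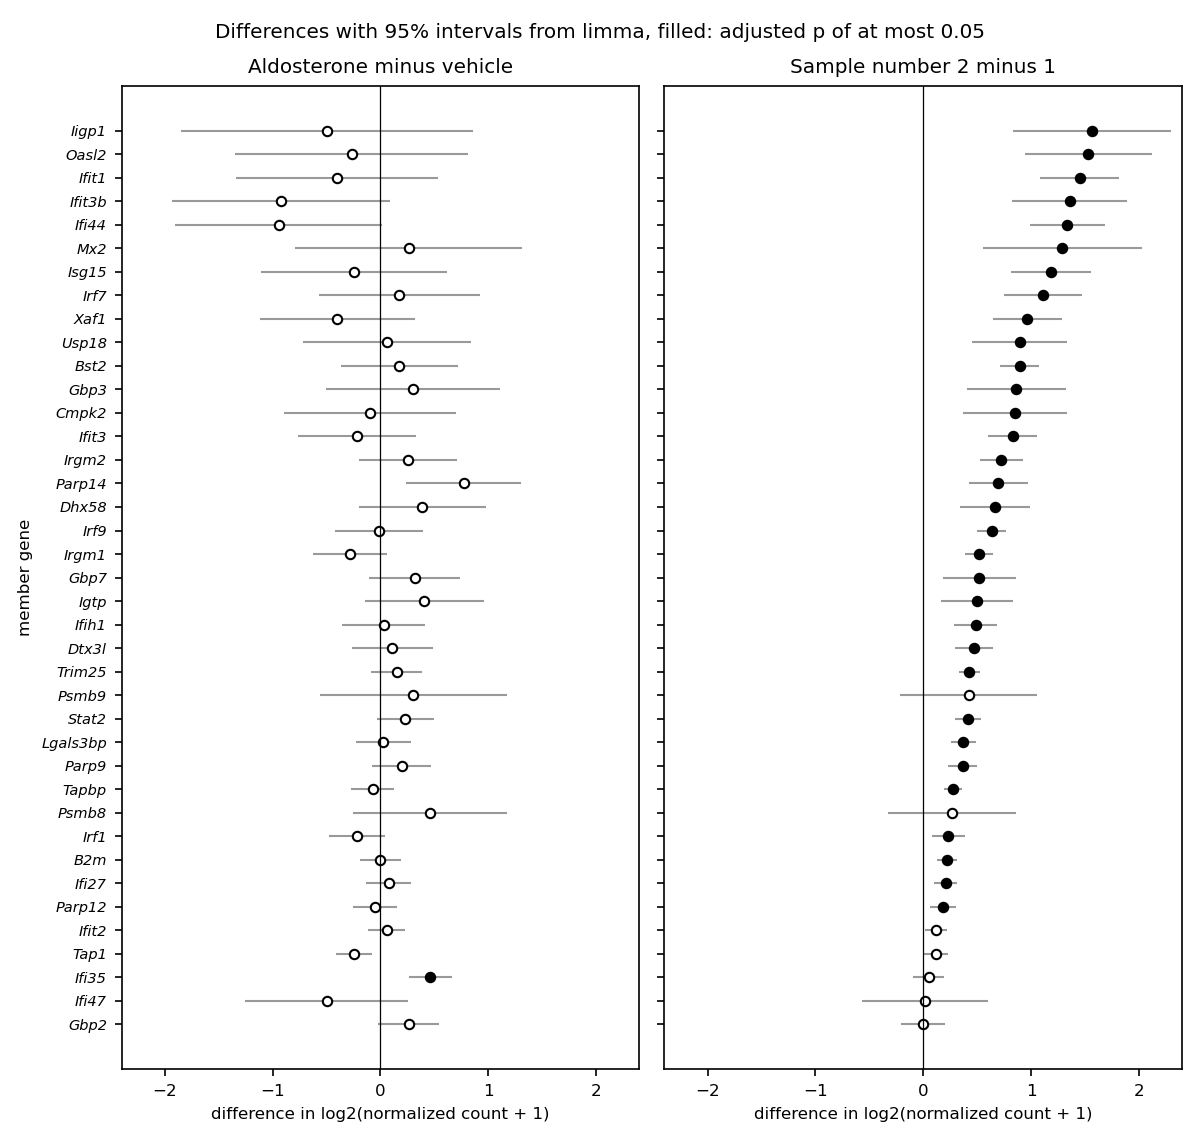
Differences in log2(normalized count + 1) with 95% intervals for the 39 members with a mean of at least 10, between aldosterone and vehicle (left) and between sample numbers 2 and 1 (right), filled where the limma adjusted p was at most 0.05. On the left *Ifi35* is filled, at 0.46, and on the right 32 of the 39 are filled, all to the right of 0.

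When the 4 libraries of each treatment were fitted alone, 2 against 2, no member reached an adjusted p of 0.05 in any of the 3 treatments by limma. At an unadjusted p under 0.05, 14 members were higher in sample number 2 with vehicle, 15 with aldosterone and 14 with spironolactone, against 5.92%, 6.53% and 5.38% of all genes. Of the members, 1 was lower, with aldosterone. The median log2 difference of the members was 0.63, 0.57 and 0.51 in these treatments. A difference in the aldosterone effect between the sample numbers was called for 0 members by limma, and for 0.00732% of all genes in each direction. In that fit 7 members had an unadjusted p under 0.05, as had 1356 of 27319 genes. Leaving out the third aldosterone library lowered the count of 33 to 21, and leaving out any other library gave 22 to 29.

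**Figure D4:**
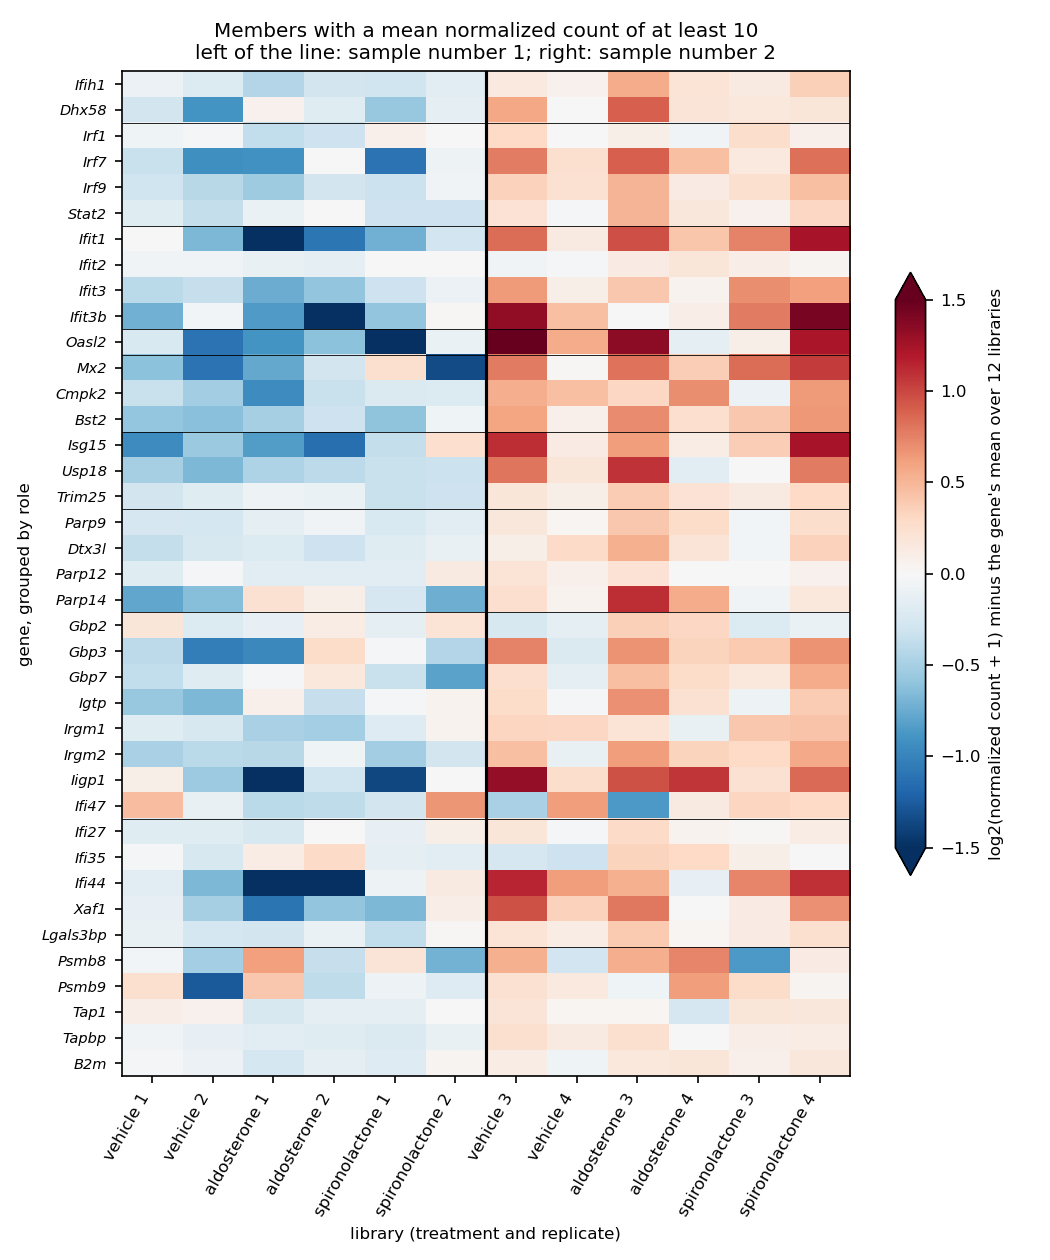
Each of the 39 members with a mean of at least 10 in the 12 libraries, as log2(normalized count + 1) minus the mean of the gene, with sample number 1 to the left of the line and sample number 2 to the right. Most rows are blue on the left and red on the right, and plates of the same treatment and number differ in shade across many rows together.

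Plates of the same treatment and sample number also differed over many members at once. The mean log2 level of the 39 members was 7.06 and 6.86 in the vehicle plates of sample number 1 and 7.74 and 7.41 in those of sample number 2. In the aldosterone plates it was 6.83 and 6.97 in sample number 1 and 7.78 and 7.51 in sample number 2, and in the spironolactone plates 6.96 and 7.16 and 7.48 and 7.77. The lowest plate of sample number 2 was above the highest plate of sample number 1 by this mean. Within sample number 2, the plate of biological replicate 1 was higher than that of biological replicate 2 for 35 of 39 members with vehicle and for 31 of 39 with aldosterone, but for 7 of 39 with spironolactone. Within sample number 1 the counts were 28, 12 and 9 of 39. The median difference of the members ran from -0.22 to 0.32 on the log2 scale over the 6 pairs of plates, and that of the 15287 genes with such a mean from -0.00559 to 0.00715. Correlations between pairs of these members were taken across the 12 libraries, on log2 deviations from the treatment means. The difference between the sample numbers was left in, so they also reflect it. The median Pearson's r was 0.775, and 702 of 741 pairs were positive, as a description over libraries that share treatments and mice. Pairs of other genes were not examined in this way. Outside the list, the 5 genes most like the members' mean level by Pearson's r over the 12 libraries were *Rtp4* (0.960), *Itm2a* (0.949), *Meltf* (0.947), *Rab11fip4* (0.947) and *Cgnl1* (0.946).

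Promoters holding the paired GAAA core belonged to 13 called members of 17 in the comparison of sample numbers, with a median log2 difference of 0.52. Those without it belonged to 12 of 19, with a median of 0.42. *Gbp2*, whose core is shown above, was not called, at -0.00 ± 0.10, and *Irf7*, *Irf9*, *Ifi44* and *Oasl2*, which had no match in this window, were.

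Markers of other cell types were read beside these differences. The sum of the 7 macrophage markers found in the tables, of 10 listed, was 287 to 348 normalized counts in sample number 1 and 254 to 321 in sample number 2, and none of the 7 was called between the numbers by limma. The 3 dendritic, T and NK cell markers found in the tables, of 7 listed, summed to at most 5.11 in any library. The endothelial marker *Kdr* was lower in sample number 2 (55.7 ± 35.9 against 122 ± 92.5, limma adjusted p = 1.98e-05), as was the myogenic marker *Des* (74.8 ± 15.5 against 112 ± 21.2, limma adjusted p = 0.00262). Each was the 1 called of 5 in its list, and 3 endothelial and 2 myogenic markers had differences above 0. The endothelial sums overlapped (468 to 765 in sample number 1, 477 to 689 in sample number 2), and so did the myogenic ones (77.5 to 139 and 62.1 to 99.8). Of the 8 fibroblast markers, 4 were higher in sample number 2 (*Lum* by 0.72 ± 0.05, *Dcn* by 0.40 ± 0.04, *Col1a2* by 0.13 ± 0.04 and *Pdgfra* by 0.11 ± 0.03 on the log2 scale) and 2 lower (*Thy1* at -0.50 ± 0.04 and *Pdgfrb* at -0.23 ± 0.03). Transcripts of Y-linked genes were present in both numbers, and *Ddx3y* differed, at 2024 to 2372 in sample number 1 and 1326 to 1441 in sample number 2. The other Y-linked genes examined overlapped between sample numbers 1 and 2. These were *Uty* (542 to 632 and 587 to 679), *Kdm5d* (753 to 883 and 825 to 990) and *Eif2s3y* (1302 to 1333 and 1194 to 1381). The X-linked *Xist* was at most 4.26 and 11.2. The part of these differences in the members' values was not tested.

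Other genes of the pathway, from a list of 111, were examined for the treatment. Of the 91 in the table, 11 were higher with aldosterone than with vehicle and 0 lower by limma, against the same 5.68% and 4.74% of all genes. With the replicate block 17 were higher and 4 lower, against 8.68% and 8.02%. The PYHIN genes, described below, were listed with the change of *Ifi209* already known. They gave 4 of the 11 higher genes and 4 of the 17, so these counts are not independent of earlier results of these data. The 4 genes lower with the block, named after their values were seen, were *Socs1*, *Ddx58*, *Ifi27l2a* and *Canx*, at -0.33 ± 0.11, -0.32 ± 0.11, -1.08 ± 0.42 and -0.15 ± 0.06. Of the interferon genes, *Ifnb1* was not among the genes of the table and the single ligand that was, *Ifnz*, had a mean of 5.10 ± 2.92 with aldosterone and 6.75 ± 4.68 with vehicle. Of the receptor chains, *Ifngr1*, the ligand-binding chain for interferon gamma, had normalized counts of 1894, 2108, 2027 and 2106 with aldosterone and 1125, 1193, 1169 and 1109 with vehicle. The treatments did not overlap, with a log2 difference of 0.82 ± 0.06 (limma adjusted p = 5.16e-08). Its partner *Ifngr2* and the type I chains *Ifnar1* and *Ifnar2* differed by -0.04 ± 0.06, -0.07 ± 0.06 and 0.08 ± 0.07, with limma adjusted p of 0.814, 0.539 and 0.536. Of the 8 receptor and Janus kinase genes 2 were called, and 4 with the block, which added the kinases *Jak1* (0.19 ± 0.07) and *Jak2* (0.18 ± 0.06). *Irf2*, a relative of *Irf1* that can repress interferon targets, rose by 0.53 ± 0.08 (limma adjusted p = 0.00043). *Samhd1*, a hydrolase of nucleotides that restricts viruses, rose from 3087 ± 121 to 4761 ± 147 (SD, n = 4 each; log2 difference 0.63 ± 0.05, limma adjusted p = 3.78e-07).

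Of the 14 listed PYHIN genes, which encode sensors of DNA and lie side by side on chromosome 1, 9 were in the table and 4 of them were higher with aldosterone. *Ifi204* had 417, 422, 459 and 432 with aldosterone and 118, 165, 126 and 106 with vehicle. The groups were far apart, with a log2 difference of 1.76 ± 0.12 (limma adjusted p = 3.95e-08). *Ifi207* had 38.8, 85.8, 65.4 and 60.4 with aldosterone and 0.839, 0.976, 1.22 and 3.22 with vehicle. The vehicle values of *Ifi207* rest on 6 reads against 267 with aldosterone, a ratio of 42.3 with a 95% counting interval of 19.2 to 116 after scaling, which covers counting error only. *Ifi211* differed by 0.54 ± 0.13 (limma adjusted p = 0.0138), and *Ifi209*, chosen after its values were seen, had 65 reads with aldosterone and 1 with vehicle, a ratio of 61.8 with an interval of 10.7 to 2479. Since these genes are similar in sequence, reads may have been divided among them by the counting. In the class I list 0 of 18 genes were called, with *H2-K1* at 0.12 ± 0.07 and *H2-D1* at 0.10 ± 0.08 on the log2 scale (limma adjusted p = 0.396 and 0.536), and in the class II list 0 of 7. With the block, *H2-T23*, a non-classical class I gene, was called higher (limma adjusted p = 1.18e-06), and *Canx*, the chaperone calnexin, lower (limma adjusted p = 0.00512). The log2 difference of *H2-T23* was 0.56 ± 0.18, with the SE of the fit without the block, in which neither gene was called.

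Against spironolactone, which shares the aldosterone libraries, 14 genes of 91 in this wider list were higher and 0 lower by limma, against 4.93% and 3.96% of all genes, and 19 were higher and 4 lower with the block, against 7.58% and 6.8%. The PYHIN genes gave 5 of the 14 and 5 of the 19. *Ifngr1* differed by 0.83 ± 0.06, *Ifi204* by 1.82 ± 0.11 and *Samhd1* by 0.62 ± 0.05. Between the sample numbers, 20 of 93 were higher in sample number 2 and 6 lower, against 5.09% and 5.81% of all genes, so the count of lower ones was near the background. *H2-D1* (0.20 ± 0.04) and *H2-K1* (0.13 ± 0.04) were among the higher ones. *Ifngr1*, *Samhd1*, *Irf2* and *Ifi204*, which rose with aldosterone, had differences between the numbers of -0.00 ± 0.04, -0.00 ± 0.04, 0.03 ± 0.07 and -0.14 ± 0.10 and were not called.

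**Figure D5:**
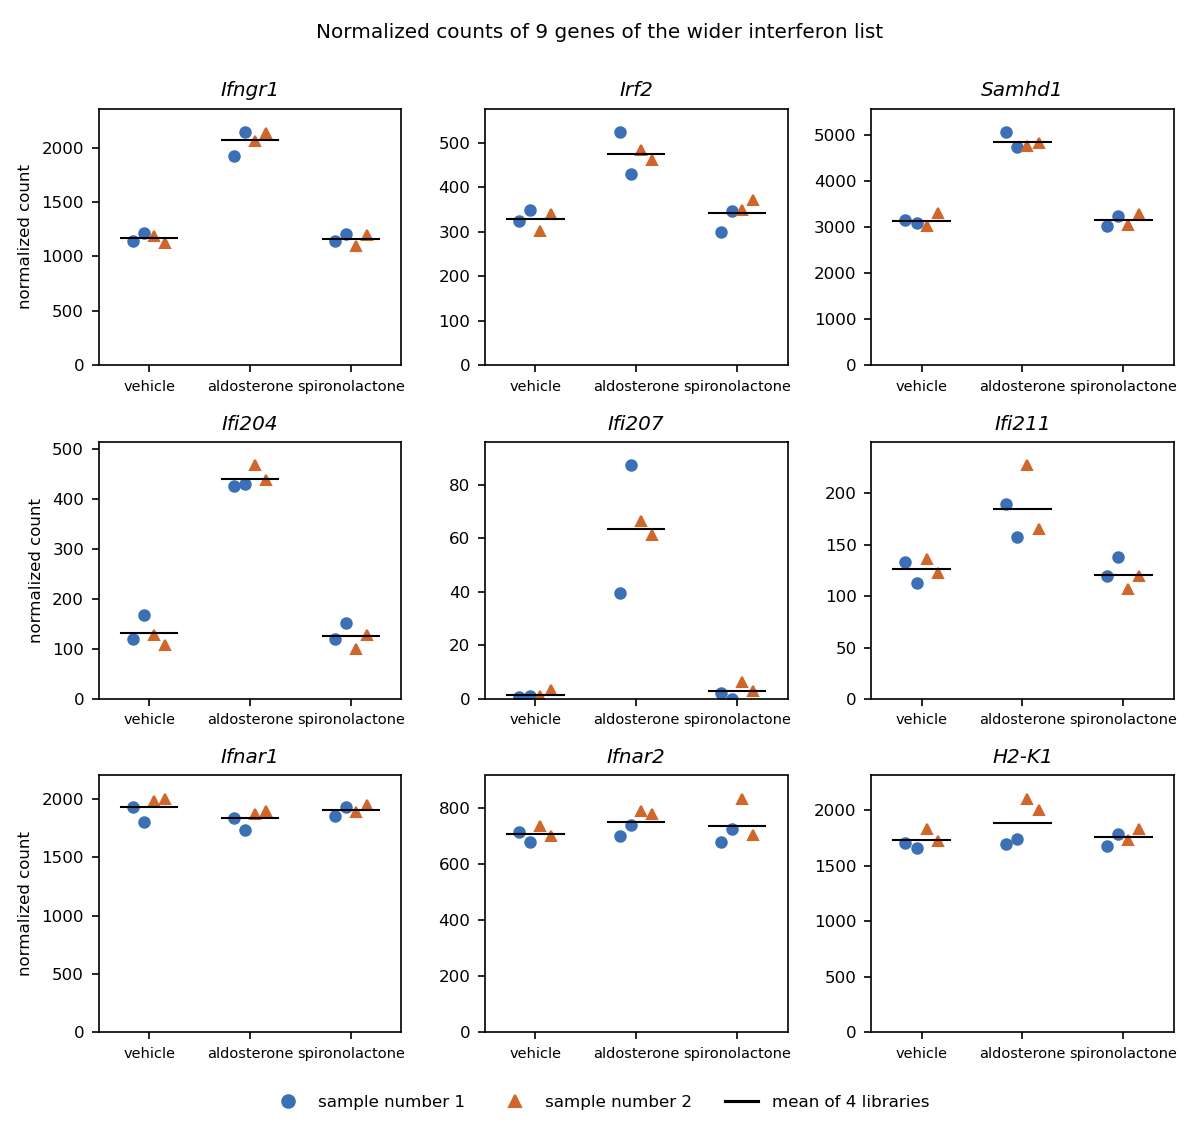
Normalized counts of 9 genes of the wider list in the 12 libraries on a common scale, with circles for sample number 1, triangles for sample number 2 and lines for means of 4 libraries. *Ifngr1* lies at 1926 to 2144 with aldosterone and at 1127 to 1212 with vehicle, whereas the treatments overlap in *Ifnar2*.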

How the data were processed

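The authors deposited 3 tables, 1 for each pair of treatments, of normalized counts (a signal per gene, reads divided by a library's size factor), beside their own log2 fold changes and p-values, which were not used here. Per the labels, reads were aligned with HISAT2 (2.0.5) to mm39 and counted with featureCounts (1.5.0-p3), while the methods name mm9. Of 20676 genes matched to an annotation of NCBIM37, the build also called mm9, 39 had the deposited start, so the deposited coordinates are not those of that annotation. All 12 libraries gave whole reads (100% of values within 0.02 of a whole number), 19136923 to 30219185 per library. Columns were matched to samples by the sample and replicate numbers in the labels.

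Each pair of treatments was fitted with limma (3.58.1, trend, R 4.3.3) on log2(normalized count + 1) over every gene of its table, with Benjamini-Hochberg adjustment and a threshold of 0.05. The sample numbers were compared on reads rescaled by median-of-ratios over 12 libraries. Libraries of the same sample number deviated together (24 pairs of libraries, mean r = 0.219, range 0.133 to 0.284). The mean r was -0.219 for pairs with different sample numbers and -0.00527 for pairs with the same biological replicate number. The sample number was therefore also fitted as a replicate block, although the labels do not say what it marks. edgeR (4.0.16) and DESeq2 (1.42.0) ran on recovered reads as alternatives, with other pseudocounts, filters and scalings and with single libraries left out. The fits were also run on simulated counts, with independent libraries and a fixed dispersion. Simulated differences were larger than those of most members between treatments, so that run does not show how often such small differences are called. The members and lists were chosen with earlier results of these data known. Per-library values were given for members called between aldosterone and vehicle with a mean of at least 10, for *Stat2*, *Irf7*, *Irf9*, *Isg15*, *B2m* and *Tap1*, and for other members chosen after their values were seen (*Oas3*, *Parp14*, *Ifi44*, *Ifit1* and *Bst2*). Promoters came from RefSeq (GRCm38.p6), and no deposited coordinate was used with them. Intervals of log2 differences come from the limma fit, and those of read ratios cover counting error only. A gene of the wider list is not reported here.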

Additional observations from a re-analysis of the deposited data

How the results depend on the processing

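For aldosterone against vehicle, the 2 members called higher became 1 with edgeR, 1 with a minimum mean of 10, 4 with the replicate block on sample number, 1 with the replicate block on biological replicate number, 0 with sample number 1 alone, and 1 to 1 when single libraries were left out. With DESeq2 the count stayed at 2, but the members were *Ifi35* and *Parp14*, and *Oas3* was given no adjusted p. The 0 members called lower became 1 with edgeR, DESeq2 and the minimum mean of 10 (*Tap1* in each), 3 with the replicate block on sample number, and 0 to 1 with single libraries left out. For aldosterone against spironolactone, the 1 member called higher became 2 with DESeq2, 3 with the replicate block on sample number, 0 with that on biological replicate number, 0 with either sample number alone, and 0 to 1 with single libraries left out, while the 0 called lower became 7 with the replicate block on sample number. Between sample numbers, the 33 called higher became 21 to 29 with single libraries left out and 0 within vehicle, 0 within aldosterone and 0 within spironolactone, an alternative chosen after seeing the data, with 2 libraries against 2. The difference of *Irf9* between aldosterone and vehicle turned from -0.01 to 0.0212 with edgeR and 0.00823 with DESeq2, and ran from -0.20 to 0.15 with single libraries left out. Those of *Isg15* (-0.55 to 0.15), *Irf7* (-0.11 to 0.52) and *B2m* (-0.0656 to 0.0855) also changed sign, and none of the 4 passed the threshold in any alternative. *Ifi35* passed it in all 15 alternatives run for single genes, which leave out the fits to 1 sample number, and *Oas3* in 3 of 13. Fits to 1 sample number or treatment, and those without a library, have fewer libraries, and otherwise the cause was not tested. Spironolactone against vehicle gave 0 members in each alternative run. Depth limits the 7 members with a mean under 10.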
